A study of Arabidopsis thaliana with 6 samples.

Results

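LFY, UFO, AP1, AP3 and PI are regulators of early flower development in Arabidopsis thaliana. They were taken by gene identifier (AT5G61850, AT1G30950, AT1G69120, AT3G54340 and AT5G20240) and are 5 of the 33341 genes listed in the deposited count files. LFY (LEAFY) is a plant-specific transcription factor that gives young primordia their floral identity and activates AP1 (APETALA1), a MADS-domain factor that keeps this identity and takes part in sepal and petal formation. UFO (UNUSUAL FLORAL ORGANS) is an F-box protein, the part of an SCF ubiquitin ligase that binds substrates, and acts with LFY to activate AP3 (APETALA3). AP3 and PI (PISTILLATA) are the B-class MADS-domain proteins, which bind DNA together as a heterodimer and specify petals and stamens.

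RNA was measured in nuclei sorted by fluorescence (FANS) from inflorescences with flowers at stage 5, in 2 groups of 3 libraries. All plants were of the Ler background, carried pAP1::AP1-GR in the ap1 cal double mutant, and were treated with 2 µM dexamethasone, which lets the AP1-GR fusion enter the nucleus so that many flowers form at once. The AP3-domain libraries (X13, X16 and X74) came from plants with pAP3:NTF(GFP), a green fluorescent nuclear envelope protein under the AP3 promoter, and the AG-domain libraries (X14, X71 and X26) from plants in which the second intron of AG and a minimal 35S promoter drive the same tag. A nucleus was thus chosen by the activity of a promoter construct, and the level of AP3 itself in the AP3-domain libraries is not independent of the sort. The paper describes stamens as specified by AP3 and AG together, so the 2 sorted domains can share nuclei of future stamens. How many they shared was not measured. Both groups carry the AP1-GR transgene and the mutant ap1 gene, whose reads cannot be told apart in the AP1 counts. The authors call the replicates of each domain biological, but the labels do not say that libraries of a group came from separate batches of plants. The p-values therefore measure the spread between these libraries only.

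The libraries held between 28808948 and 42089156 counts, with a median of 35897929 in the AP3-domain and 31704305 in the AG-domain. X74 and X71, which are not in the authors' normalized table, had 26717 and 26489 genes with a read, against 22923 to 23439 in the remaining 4. The AG transcript did not follow the labels, with 41.5, 75.4 and 94.3 CPM (counts per nuclear library size after TMM scaling) in the AP3-domain libraries and 38.4, 41.2 and 14.2 CPM in the AG-domain libraries (log2 fold change 1.17, edgeR adjusted p = 0.141, DESeq2 adjusted p = 0.0289). Of 16 vascular markers, 13 were called lower in the AP3-domain libraries and none higher (15 lower and none higher by DESeq2 or at an unadjusted p under 0.05), and their summed level was 237 to 302 CPM there and 755 to 862 CPM in the AG-domain libraries. Of 5 epidermal markers, 2 were called higher by edgeR (4 by DESeq2 or at an unadjusted p under 0.05, and 0 by edgeR without X16, without X71 or with the authors' 4 normalized libraries). Their summed level, most of it PDF1, was 3523 to 4277 CPM in the AP3-domain libraries and 863 to 1975 CPM in the AG-domain libraries. No vascular or epidermal marker was at 0 in any library. Of 5 carpel markers tested, AG among them, none was called by edgeR (2 higher and 1 lower at an unadjusted p under 0.05, 1 in each direction by DESeq2), and their sums were 126 to 193 CPM in the AP3-domain and 61.6 to 121 CPM in the AG-domain libraries. In sorted bulk samples, a lower share of nuclei that express a gene and less RNA per nucleus cannot be told apart.

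All 5 genes had more transcript in every AP3-domain library than in any AG-domain library, whereas such a separation upwards was seen for 10.9% of the 20013 genes tested and a separation in either direction for 25.9%. UFO differed most, with about 12.2 times its AG-domain level, followed by AP3, PI, AP1 and LFY. Called at an adjusted p under 0.05 by edgeR were 4 of the 5, all but PI, beside 1.36% of all tested genes called higher and 7.76% called in either direction. DESeq2 called 5 of the 5, with 2.94% of all tested genes called higher, and in the 4 libraries of the authors' table edgeR called UFO alone. The median log2 fold change was 1.58 over the 5 genes and 0.03 over all genes tested. AP3 is 1 of the 5 in all of these figures, and its level is not independent of the sort by its promoter.

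LFY (chromosome 5, 24844248 to 24846989, plus strand, TAIR10) reached 113, 124 and 93.5 CPM in the AP3-domain libraries X13, X16 and X74, against 66.1, 43.4 and 36.1 CPM in the AG-domain libraries X14, X71 and X26. The groups did not overlap, although the lowest AP3-domain library exceeded the highest AG-domain library by only 1.41 times. LFY averaged 110 ± 15.5 CPM in the AP3-domain and 48.5 ± 15.7 CPM in the AG-domain (SD, n = 3 each), a log2 fold change of 1.18 (SE 0.24, edgeR adjusted p = 0.0186). The call was lost without X16 (adjusted p = 0.0690, edgeR) and without X71 (adjusted p = 0.0759, edgeR).

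UFO (chromosome 1, 11035992 to 11037508, plus strand), a gene annotated with 1 exon and no intron, reached 63.8, 66.4 and 66.5 CPM in the AP3-domain libraries, against 7.60, 3.05 and 5.51 CPM in the AG-domain libraries. The AP3-domain values were nearly equal and each lay at least 8.40 times above every AG-domain value. The means were 65.6 ± 1.53 CPM in the AP3-domain and 5.39 ± 2.28 CPM in the AG-domain (SD, n = 3 each), a log2 fold change of 3.61 (SE 0.31, edgeR adjusted p = 0.00041). UFO thus ranked 16 of the 20013 tested genes by log2 fold change, and only 1 other gene had at least its mean level together with at least its fold change. It rested on 2324, 2019 and 2486 reads in the AP3-domain libraries and 206, 103 and 175 reads in the AG-domain libraries. On the variance stabilized scale of the authors, which is log2-like and covers 4 libraries, UFO stood at 11.1 and 11.2 in X13 and X16, against 8.81 and 8.57 in X14 and X26. The call held under all 15 alternatives tried, with adjusted p between 1.28e-29 and 0.00301 (edgeR or DESeq2).

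AP1 (chromosome 1, 25982294 to 25986349, minus strand) was the most abundant of the 5 genes in every library, with 594, 683 and 632 CPM in the AP3-domain libraries and 344, 284 and 188 CPM in the AG-domain libraries. The means were 637 ± 44.9 CPM in the AP3-domain and 272 ± 78.7 CPM in the AG-domain (SD, n = 3 each). The log2 fold change was 1.23 (SE 0.25, edgeR adjusted p = 0.018), close in size to that of LFY. The call was lost without X16 (adjusted p = 0.0690, edgeR) and without X71 (adjusted p = 0.0653, edgeR).

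AP3 (chromosome 3, 20119140 to 20121314, minus strand) reached 126, 207 and 239 CPM in the AP3-domain libraries, against 58.1, 41.4 and 12.2 CPM in the AG-domain libraries. Its transcript was therefore present in every AG-domain library, at levels that spanned 2.25 on the log2 scale between X14 and X26. AP3 averaged 191 ± 58.0 CPM in the AP3-domain and 37.2 ± 23.3 CPM in the AG-domain (SD, n = 3 each), a log2 fold change of 2.36 (SE 0.50, edgeR adjusted p = 0.0216). The call was lost without X16 (adjusted p = 0.0661, edgeR) and without X71 (adjusted p = 0.0669, edgeR).

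PI (chromosome 5, 6828904 to 6831515, plus strand) reached 125, 189 and 186 CPM in the AP3-domain libraries and 85.5, 59.4 and 22.3 CPM in the AG-domain libraries. As for AP3, X13 was the lowest AP3-domain library and X26 the lowest AG-domain library. PI averaged 167 ± 36.2 CPM in the AP3-domain and 55.7 ± 31.7 CPM in the AG-domain (SD, n = 3 each), with a log2 fold change of 1.58 (SE 0.42) that did not pass the threshold (edgeR adjusted p = 0.0531). It passed it with DESeq2 (adjusted p = 0.000814), and with edgeR without X14 (adjusted p = 0.0273) or without X26 (adjusted p = 0.0388).

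**Figure D1:**
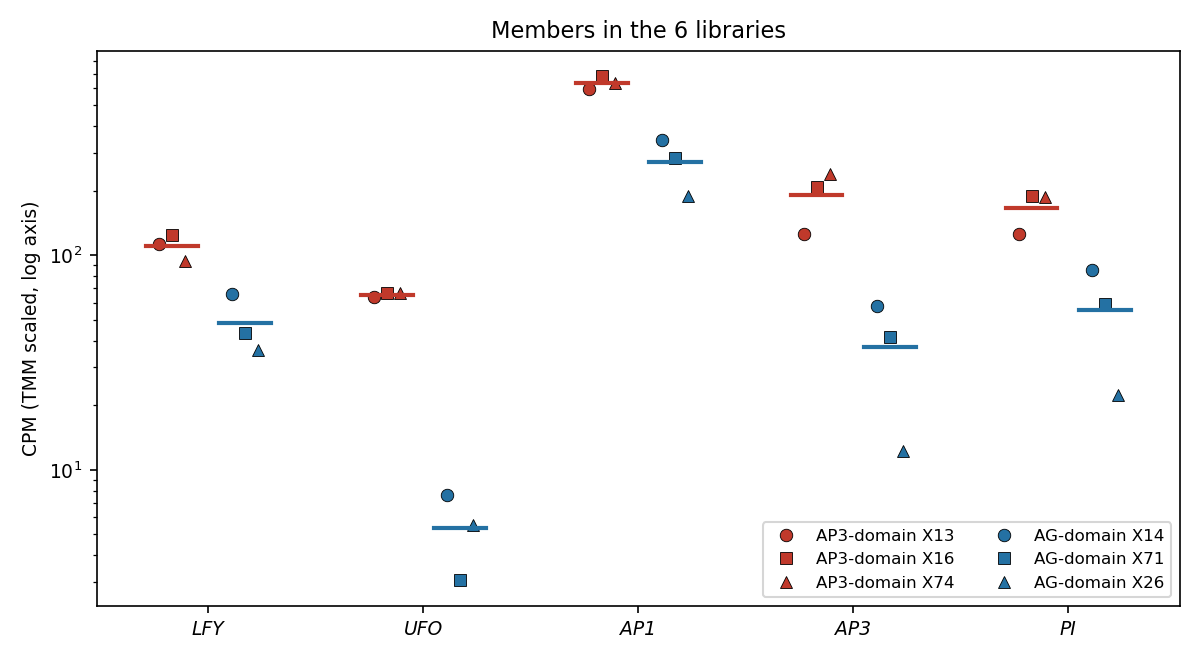
CPM of the 5 genes on a log axis, with AP3-domain libraries in red on the left of each pair, AG-domain libraries in blue on the right, a symbol per library and a bar at the mean of 3. The red and blue symbols do not overlap for any gene, and the gap is widest for UFO, where every AP3-domain library lies between 63.8 and 66.5 CPM and every AG-domain library between 3.05 and 7.60 CPM.

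The stretch just before the AP1 gene start is shown because AP1 is a known direct target of LFY, and that of AP3 because LFY and UFO act on AP3 and because its promoter drove the tag by which the AP3-domain nuclei were sorted. Both are the 300 bases upstream of the annotated gene start, read 5′ to 3′ on the strand of the gene, from the Columbia reference genome (TAIR10.1, RefSeq), whereas the plants were Ler. Capitals mark CCANTG on either strand, the core of the sequences LFY is known to bind. The AP1 window is chr1:25986350-25986649 and the AP3 window chr3:20121315-20121614, both on the minus strand.
AP1: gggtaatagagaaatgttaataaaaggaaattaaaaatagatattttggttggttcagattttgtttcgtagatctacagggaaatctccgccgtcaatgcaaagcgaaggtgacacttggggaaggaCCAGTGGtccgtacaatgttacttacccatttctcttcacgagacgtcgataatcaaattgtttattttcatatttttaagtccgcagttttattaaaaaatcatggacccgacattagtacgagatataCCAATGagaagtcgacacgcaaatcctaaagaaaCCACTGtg
AP3: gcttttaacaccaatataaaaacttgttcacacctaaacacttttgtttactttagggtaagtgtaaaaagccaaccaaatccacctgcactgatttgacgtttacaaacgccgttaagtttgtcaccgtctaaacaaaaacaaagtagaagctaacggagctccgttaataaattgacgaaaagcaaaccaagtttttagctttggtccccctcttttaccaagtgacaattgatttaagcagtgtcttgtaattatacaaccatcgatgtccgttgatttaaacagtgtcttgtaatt
The AP1 window held the motif in 3 separate places, 172 to 166, 42 to 37 and 8 to 3 bases before the gene start, of which the first, CCAGTGG, holds overlapping matches on both strands. Over the 33053 windows of this length in the genome, 25.3% held at least 1 match and 0.599% held 3 or more separate ones. The windows of LFY, UFO, AP3 and PI held none, which says only that these letters are not in these 300 bases. No window of the 5 genes held a perfect CArG box, the motif bound by MADS-domain proteins, which was present in 2.78% of all windows. A match is a description of the sequence and not a measured binding site.

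To compare levels between the genes, CPM were divided by gene length in kb, introns included, as the reads were counted. Per kb, AP1 was the most abundant in all 6 libraries, at 157 ± 11.1 CPM in the AP3-domain and 67.0 ± 19.4 CPM in the AG-domain (SD, n = 3 each). In the AP3-domain libraries AP3 followed at 87.6 ± 26.7 and PI at 63.8 ± 13.9 CPM per kb, in that order in each of the 3 libraries, although their ranges overlapped. UFO and LFY came last there at 43.2 ± 1.01 and 40.2 ± 5.65 CPM per kb and did not differ beyond the spread of LFY. This depends on the division by gene length, since UFO has no intron and introns make up 49.7% of LFY. Undivided, LFY averaged 110 and UFO 65.6 CPM in the AP3-domain, and the share of reads from introns was not measured. In the AG-domain libraries PI averaged 21.3 ± 12.2, LFY 17.7 ± 5.72 and AP3 17.1 ± 10.7 CPM per kb. The means of these 3 genes did not differ beyond the spread between libraries. Within libraries PI was above AP3 in each, with AP3 to PI ratios of 0.817, 0.837 and 0.656 in X14, X71 and X26. UFO was the lowest of the 5 in every AG-domain library, at 3.55 ± 1.50 CPM per kb. The 5 genes summed to 1022, 1270 and 1217 TMM-scaled CPM in the AP3-domain libraries and 561, 431 and 264 in the AG-domain libraries. As an unscaled share of nuclear counts this was 0.0919%, 0.124% and 0.130% in the AP3-domain libraries and 0.0553%, 0.0449% and 0.0273% in the AG-domain libraries.

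Ratios between 2 genes within a library do not depend on library size, and 6 of the 10 pairs separated the groups without overlap. How many other pairs of genes did so was not computed, while 25.9% of single genes separated in either direction. Each of the 6 pairs held UFO or AP3, the genes with the largest fold changes here, so they are not separate results. Ratios that hold AP3 are also not independent of the sort by its promoter. The test of each ratio was a two-sided exact permutation test over the 6 libraries, which cannot go below p = 0.1 with 3 against 3. Each of the 6 pairs reached this p, or 0.167 after Benjamini-Hochberg adjustment over the 10 pairs, and none can pass the threshold in this design.

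The B-class pair changed place between the groups. The AP3 to PI ratio per kb was 1.21, 1.31 and 1.54 in the AP3-domain libraries and 0.817, 0.837 and 0.656 in the AG-domain libraries. AP3 thus exceeded PI in all 3 AP3-domain libraries and lay below it in all 3 AG-domain libraries, a difference of 0.82 on the log2 scale, or 1.76-fold (exact permutation p = 0.1). The difference stayed between 0.71 and 0.90 when any 1 library was left out. As the AP3-domain nuclei were sorted by the AP3 promoter, this ratio is not independent of the sort.

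The LFY to AP1 ratio was the most even of the 10. It was 0.282, 0.268 and 0.219 in the AP3-domain libraries and 0.285, 0.226 and 0.284 in the AG-domain libraries, so that the highest of the 6 libraries exceeded the lowest by 1.30 times. The groups overlapped, with a mean difference of -0.05 on the log2 scale (exact permutation p = 0.5), whose sign turned when X74, X14 or X26 was left out.

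UFO stood apart from both LFY and AP1. The LFY to UFO ratio per kb, introns included, was 0.981, 1.03 and 0.778 in the AP3-domain libraries and 4.82, 7.87 and 3.62 in the AG-domain libraries, a log2 difference of -2.48 (exact permutation p = 0.1). The size of the ratio depends on the gene lengths used, whereas the difference between the groups does not. The UFO to AP1 ratio was 0.287, 0.260 and 0.281 in the AP3-domain libraries and 0.059, 0.029 and 0.078 in the AG-domain libraries, a log2 difference of 2.43 (exact permutation p = 0.1). Neither ratio overlapped between the groups, and in the AP3-domain libraries the UFO to AP1 ratio varied little.

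Against the B-class genes, the UFO to PI ratio was 0.880, 0.604 and 0.616 in the AP3-domain libraries and 0.153, 0.088 and 0.425 in the AG-domain libraries, without overlap (log2 difference 1.94, exact permutation p = 0.1). The UFO to AP3 ratio overlapped, with 0.725, 0.460 and 0.399 in the AP3-domain libraries and 0.187, 0.106 and 0.648 in the AG-domain libraries (exact permutation p = 0.3). It was X26, where AP3 was at its lowest, that lay within the AP3-domain range. The ratios of LFY to AP3 and of AP1 to AP3 were lower in every AP3-domain library than in any AG-domain library (log2 differences -1.36 and -1.31, exact permutation p = 0.1 each), while those of LFY to PI (p = 0.4) and AP1 to PI (p = 0.2, both exact permutation tests) overlapped.

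**Figure D2:**
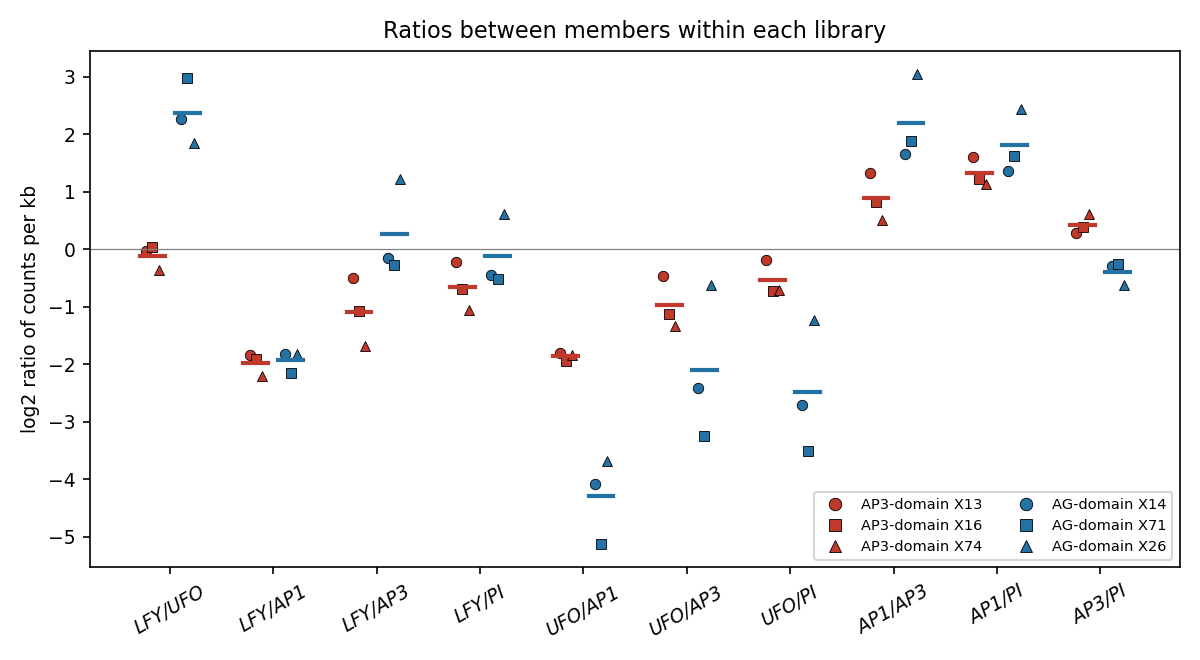
Log2 ratio of counts per kb for the 10 pairs of genes within each library, AP3-domain in red on the left of each pair and AG-domain in blue on the right, with a bar at the mean of 3. AP3/PI lies above 0 in all AP3-domain libraries and below 0 in all AG-domain libraries, LFY/AP1 stays between -2.19 and -1.81 in all 6, and LFY/UFO lies near 0 in the AP3-domain libraries and between 1.86 and 2.98 in the AG-domain libraries.

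Within a group, the genes were compared by the deviation of log2 CPM from the group mean, as a description over 3 libraries. In the AG-domain, X14 was the highest library for all 5 genes, by 0.38 (AP1) to 0.91 (AP3). X26 was the lowest for LFY, AP1, AP3 and PI, with AP3 at -1.34 and PI at -1.12. UFO departed from this order, since its lowest AG-domain library was X71, at -0.71, while X26 was at 0.13. In the AP3-domain, X13 was the lowest library for AP3 (-0.54) and PI (-0.39), but also for AP1 (-0.098) and UFO (-0.039). AP3 was highest there in X74 (0.376) and PI in X16 (0.209). LFY was lowest in X74 instead, at -0.23.

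The spread itself differed between the genes. For AP3, the SD of log2 CPM over the AG-domain libraries was 1.18. This was larger than that of 99.9% of the 3281 genes within 0.5 of its mean log2 CPM over all 6 libraries. For PI it was 1.00, larger than that of 99.6% of 2707 genes near PI by the same rule. Their SDs over the AP3-domain libraries were 0.48 and 0.34. UFO was at the other end in the AP3-domain, with an SD of 0.034 that only 1.98% of 3286 genes near UFO by this rule fell below. Its SD over the AG-domain libraries was 0.66. As genes were matched over all 6 libraries and not within a group, AP3 and PI lay below their matched level in the AG-domain. UFO lay above its own in the AP3-domain, and how far this moved the shares was not tested. The epidermal marker sum had the same order of libraries in the AG-domain as LFY, AP1, AP3 and PI, with 1975, 1460 and 863 CPM in X14, X71 and X26. In the AP3-domain its order was that of none of these genes, with 4277, 4175 and 3523 CPM in X13, X16 and X74.

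**Figure D3:**
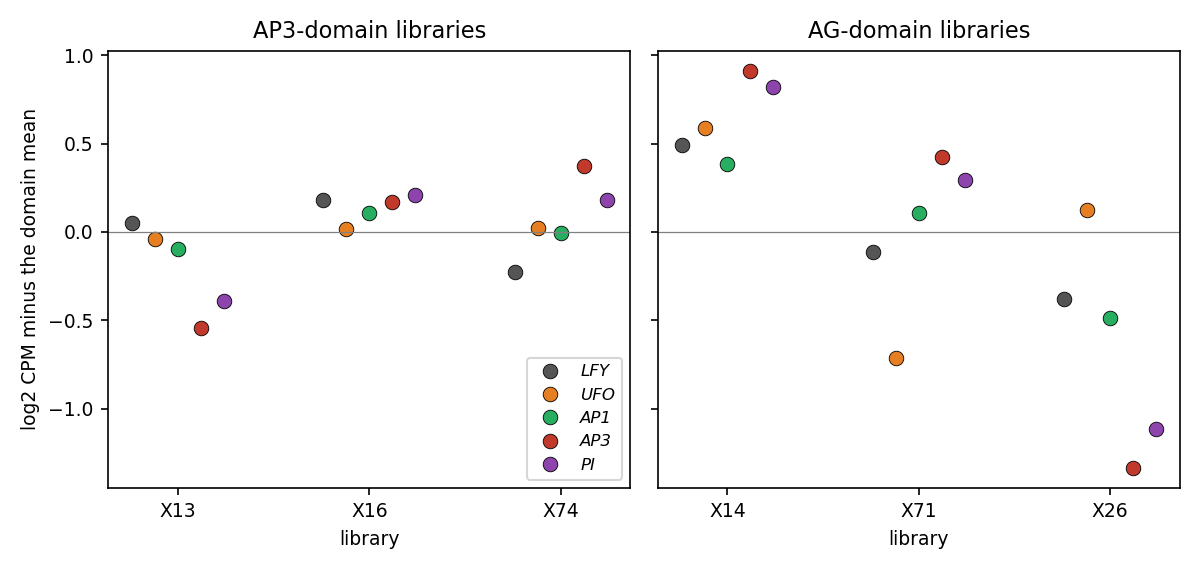
Deviation of log2 CPM from the mean of the group for the 5 genes, in the AP3-domain libraries on the left and the AG-domain libraries on the right. AP3 and PI lie close to each other in every library and range widely in the AG-domain, from 0.91 to -1.34 for AP3, whereas UFO hardly moves in the AP3-domain and is lowest in X71 in the AG-domain.

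Over all 6 libraries, likeness was measured as the root mean square difference of log2 CPM profiles centred on their mean, among the 14369 genes whose log2 CPM averaged 3 or more. As the libraries fall into 2 groups, genes with a like fold change score well. LFY and AP1 differed by 0.16 and each ranked 22 in the list of the other. PI ranked 14 for AP3, at 0.44, and AP3 ranked 75 for PI. AP3 was the nearest of the 5 to UFO, at 0.98 and rank 24, while UFO ranked 13892 for LFY.

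The genes most like LFY were CRY3, a cryptochrome of the DASH type (0.05), GPAT4, an acyltransferase of cutin synthesis (0.10), and AT3G01490 (0.11). Those most like AP1 were AT3G11000 (0.10), BDG1, needed for the cuticle (0.10), and AT4G04630 (0.11). The nearest to AP3 were ENDO3, an endonuclease (0.21), FOP1 (0.23) and AGL15, a MADS-domain gene (0.24). PI was most like AT1G16705 (0.09), FPF1 (0.14) and SEP3 (0.16), the E-class MADS-domain partner of the floral organ identity proteins. Among the genes at this level none came close to UFO. The nearest were AT5G03350 (0.62), AT5G49700 (0.64) and AT3G25670 (0.65), all with a smaller fold change than UFO. Genes of lower level were not compared, among them RBE, whose log2 fold change (3.70) was near that of UFO (3.61).

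Around the 5 genes, 45 further genes were listed as their regulators, partners or targets, of which 42 were tested. As the lists were drawn up with earlier results of these data known, their counts are descriptions. Of the 42, 6 were called higher in the AP3-domain libraries (1.36% of all tested genes were) and 8 lower (6.40% of all tested genes were). Their median was 0.17 on the log2 scale. With the authors' 4 normalized libraries alone the calls were 3 higher and 5 lower, and with DESeq2 10 higher and 9 lower.

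Among 10 tested genes upstream of LFY, 2 were called higher and 3 lower. BOP1 and BOP2, related BTB-ankyrin proteins that act with transcription factors at organ boundaries, rose by 2.96 (SE 0.47, edgeR adjusted p = 0.0064) and 2.32 (SE 0.28, edgeR adjusted p = 0.0017) on the log2 scale. BOP2 had 41.3, 46.9 and 51.4 CPM in the AP3-domain libraries and 13.4, 8.44 and 6.29 CPM in the AG-domain libraries. TFL1, which keeps shoot meristems from becoming floral, had 2.31, 2.01 and 1.605 CPM in the AP3-domain libraries and 19.9, 24.3 and 32.7 CPM in the AG-domain libraries, a log2 fold change of -3.70. The MADS-domain flowering genes SOC1 (-1.11) and AGL24 (-1.95) were also called lower. MP, ANT, AIL6, SPL9 and FD were not called by edgeR, although FD (0.78) was called with DESeq2 (adjusted p = 0.0462) and by edgeR without X13 (adjusted p = 0.0219), and PUCHI and SPL3 had too few reads to be tested.

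None of 4 SCF subunits that would join UFO in the ligase (ASK1, ASK2, CUL1 and RBX1) was called by edgeR or by DESeq2, or had an unadjusted p under 0.05 (0 of 4 in each case). Their log2 fold changes lay between 0.05 and 0.49, with a median of 0.34 (0.03 over all genes tested). Of the 4, 1 (ASK1) was higher in every AP3-domain library than in any AG-domain library, as were 10.9% of all tested genes. Of 6 known LFY targets besides the 5 genes, 3 were called higher and none lower by edgeR (4 and 0 by DESeq2 or at an unadjusted p under 0.05), with a median log2 fold change of 1.18. These were RAX1, a MYB gene of axillary meristems (3.07), SEP3 (1.76) and LMI2, a MYB gene of meristem identity (1.18). SEP3 had 208, 305 and 395 CPM in the AP3-domain libraries and 127, 102 and 38.4 CPM in the AG-domain libraries, an order of libraries that is also that of AP3. CAL, AP1's closest relative and mutant in these plants, was at -0.31 (edgeR adjusted p = 0.55), and FUL, the other well-expressed gene of the AP1 clade, was called lower (-0.97). The calls of LMI2 and SEP3 were lost without X16 or without X71, that of SEP3 also without X74, that of RAX1 without X71 and that of FUL without X16.

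Of 11 genes that AP1 is known to repress, 6 were called lower in the AP3-domain libraries and none higher by edgeR, with a median of -1.11 on the log2 scale. At an unadjusted p under 0.05 there were 7 lower and 2 higher, and with DESeq2 6 lower and 1 higher. They were TFL1, AGL24 and SOC1 with the values above, SVP, a MADS-domain repressor of flowering (-1.09), and TOE1 (-1.78) and TOE3 (-1.34), AP2-like repressors. AGL24 had 13.5, 19.9 and 18.7 CPM in the AP3-domain libraries and 61.9, 73.1 and 66.8 CPM in the AG-domain libraries, without overlap. The calls of SVP (without X16 or X71), TOE1 (without X16) and TOE3 (without any of X74, X14, X71 and X26) rested on single libraries, whereas those of TFL1, AGL24 and SOC1 held in all 15 alternatives. These genes were low where the summed vascular markers were low (237 to 302 CPM in the AP3-domain, 755 to 862 CPM in the AG-domain), and the part of other cell types in their levels was not tested.

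Of 6 genes listed as regulators of the B-class genes, RBE, a zinc finger repressor that acts in petal primordia, was called higher (log2 fold change 3.70, SE 0.45, edgeR adjusted p = 0.0019). It had 5.60, 8.05 and 8.85 CPM in the AP3-domain libraries and 0.848, 0.326 and 0.566 CPM in the AG-domain libraries. An action of RBE on AP3 or PI was not tested. SUP (1.18) and AP2 (1.00) were not called by edgeR but were by DESeq2 (adjusted p = 0.0375 and 0.00975), which called 3 of the 6 higher, and LUG, SEU and CLF were between 0.04 and 0.11. Among 8 tested genes known to respond to AP3 and PI, 1 was called by edgeR, GNC, a GATA factor of chlorophyll synthesis, at -1.27 (edgeR adjusted p = 0.0423). Its call was lost when any 1 library was left out, and the median of the 8 was 0.06. DESeq2 called 1 higher (SUP) and 2 lower (GNC and BNQ1).

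**Figure D4:**
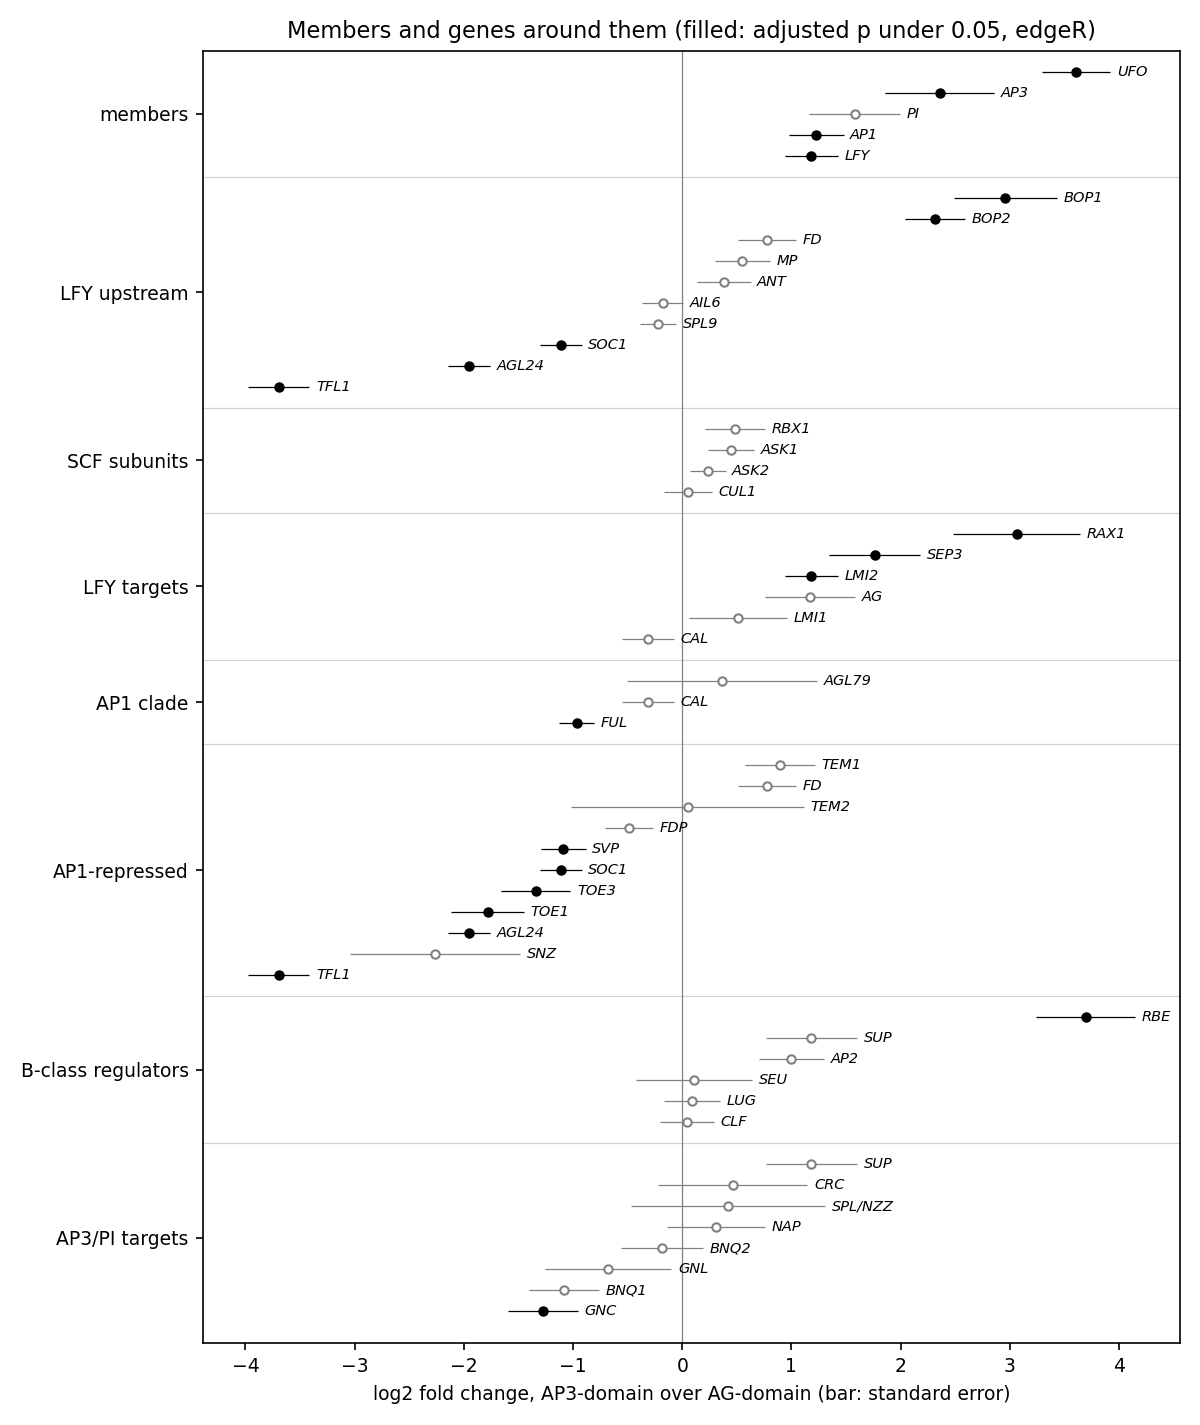
Log2 fold change, AP3-domain over AG-domain, with its standard error, for the 5 genes at the top and the 7 lists around them, filled where called by edgeR; a gene of 2 lists is drawn in both. UFO (3.61), RBE (3.70), RAX1 (3.07) and BOP1 (2.96) lie farthest to the right and TFL1 (-3.70) farthest to the left, and the SCF subunits lie between 0.05 and 0.49.

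Since the epidermal marker sum was also higher in the AP3-domain libraries, each gene was expressed per 100 CPM of these markers, as a description. UFO then stood at 1.49, 1.59 and 1.89 in the AP3-domain libraries, against 0.385, 0.209 and 0.638 in the AG-domain libraries, still without overlap and with a log2 difference of 2.15. AP3 was at 2.95, 4.96 and 6.78 in the AP3-domain libraries and 2.94, 2.83 and 1.41 in the AG-domain libraries, where the lowest of the AP3-domain hardly exceeded the highest of the AG-domain (log2 difference 1.02). LFY turned round on this scale, with 2.65, 2.97 and 2.65 in the AP3-domain libraries and 3.35, 2.97 and 4.18 in the AG-domain libraries (log2 difference -0.33), although the highest AP3-domain and the lowest AG-domain library were both near 2.97. AP1 was at 13.9, 16.4 and 18.0 in the AP3-domain libraries and 17.4, 19.4 and 21.7 in the AG-domain libraries (log2 difference -0.28), with overlap, and PI overlapped as well (log2 difference 0.21). Most of the marker sum was PDF1, whose log2 fold change (1.64) was larger than those of LFY (1.18) and AP1 (1.23). The log2 fold changes of ATML1 (1.09), PDF2 (0.77), FDH (1.10) and CER5 (-0.02) were smaller than both, so the turn of LFY and AP1 rests on PDF1. Per 100 CPM of 4 markers of dividing cells, whose sum was 2230 to 2313 CPM in the AP3-domain and 1337 to 1705 CPM in the AG-domain, all 5 genes stayed higher in every AP3-domain library, with log2 differences between 0.66 (LFY) and 3.14 (UFO). Per 100 CPM of the vascular markers, whose sum was lower in the AP3-domain libraries, the differences were wider, at 2.75 for LFY, 2.79 for AP1, 3.28 for PI, 4.10 for AP3 and 5.23 for UFO, again without overlap. The part of the makeup of the sorted nuclei in the differences of LFY, AP1 and PI was not tested.

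**Figure D5:**
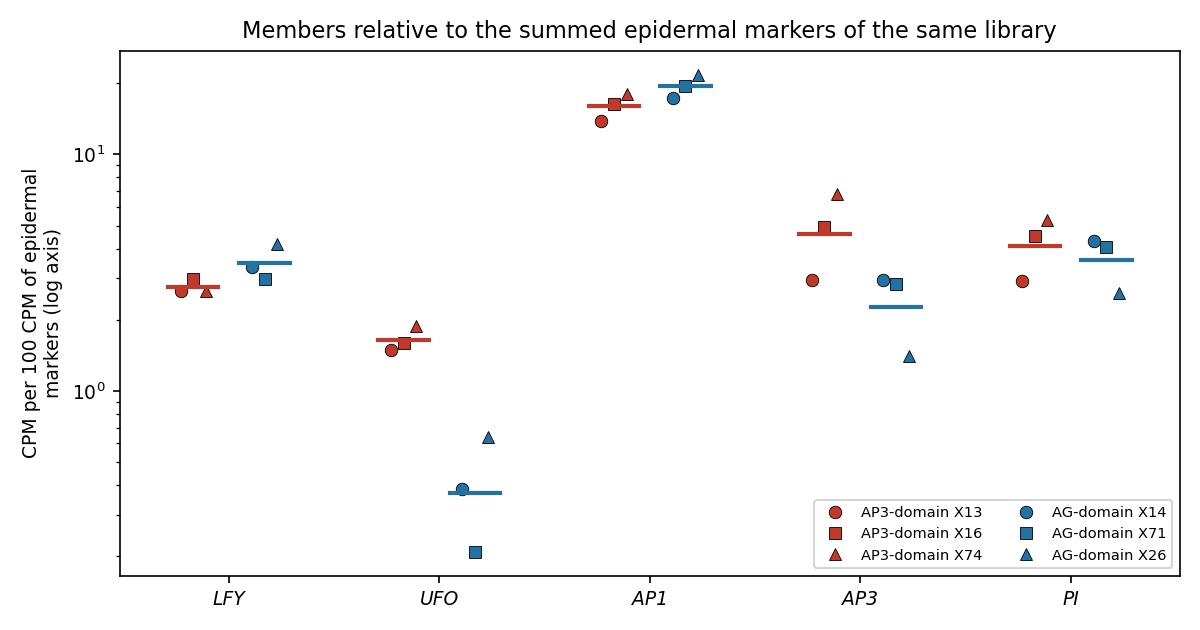
CPM of each gene per 100 CPM of 5 summed epidermal markers in the same library, on a log axis, AP3-domain in red on the left of each pair and AG-domain in blue on the right, with a bar at the mean of 3 log values. UFO keeps a wide gap (1.49 to 1.89 in the AP3-domain, 0.209 to 0.638 in the AG-domain), while LFY and AP1 lie slightly lower in the AP3-domain and PI overlaps. Most of the marker sum is PDF1.

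Reads were counted without strand and over introns, which make up 57.0% of AP1, 50.0% of PI, 49.7% of LFY and 44.2% of AP3. No other counted gene overlaps any of the 5, so that none of their bases belong to another annotated gene. The nearest tested neighbours on both sides were 10 genes, up to 32.8 kb away because untested genes were passed over. Of these, 2 were called, whereas 7.76% of all tested genes were. Both flanked AP1, at 8788 bp (AT1G69080, -4.30) and 13487 bp (AT1G69160, -1.93). Both were lower in the AP3-domain libraries, opposite to AP1 itself. AT1G30960, which starts 43 bp beyond UFO, had a log2 fold change of 0.53 (edgeR adjusted p = 0.383). Fragments that cross this gap were not examined.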

How the data were processed

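After trimming (Trimmomatic), the authors kept reads that STAR 2.7.0b placed uniquely on TAIR10 and deposited unnormalized counts of read pairs per gene for 6 libraries. Per the file headers, featureCounts 1.6.0 counted over whole genes of the Araport11 annotation, introns included and without strand. The authors also deposited variance stabilized values from DESeq2 1.24.0, which are close to a log2 scale, for X13, X16, X14 and X26.

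Organelle genes (2.39% to 4.56% of counts) were removed. The filter on low counts was that of the methods, over 10 reads in 2 or more libraries, and left 20013 genes. Counts were scaled by TMM and tested with edgeR 4.0.16 (quasi-likelihood test, R 4.3.3) with Benjamini-Hochberg adjustment over all of them, and the test was run on simulated data first. Log2 CPM used a prior count of 2. Standard errors were derived as the absolute log2 fold change over the square root of the F statistic. Depth was ample for the 5 genes, of which the lowest value rests on 103 reads, so that precision was set by 3 libraries per group. Replicates differed by more than sampling noise.

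DESeq2 1.42.0, other scalings and filters, the 4 libraries of the authors' table, a block for membership of that table and leaving out each library were the alternatives. Ratios were compared by exact permutation tests. The genes named are the 5, those of the lists that were called or whose role is needed, and the 3 genes most like each of the 5. Members and lists were chosen with earlier results of these data known. Gene coordinates in the files were identical to TAIR10.1 for 33055 of 33056 nuclear genes, and sequences were read from that assembly. The authors' own comparisons were not used.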

Additional observations from a re-analysis of the deposited data

How the results depend on the processing

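All 5 genes kept their direction in all 15 alternatives, and UFO its call. With the 4 libraries of the authors' table only UFO remained called, while LFY (log2 fold change 1.21, adjusted p = 0.0696), AP1 (1.26, adjusted p = 0.0945) and AP3 (2.24, adjusted p = 0.0944, all edgeR) were no longer past the threshold, in a fit with fewer samples. PI passed it with DESeq2 (1.59), with library totals alone (1.55, edgeR adjusted p = 0.0407) and with no filter beyond 1 read (1.605, edgeR adjusted p = 0.0037), and the cause was not tested. Leaving out each library in turn gave log2 fold changes of 1.01 to 1.46 for LFY, 3.32 to 3.92 for UFO, 1.02 to 1.42 for AP1, 1.94 to 2.83 for AP3 and 1.20 to 2.02 for PI, and for the LFY to AP1 ratio log2 differences of -0.16 to 0.062, the highest without X74, with 0.0072 without X14 and 0.0059 without X26. Only UFO was called without X16 or without X71, and all 5 without X14 or without X26. The number of genes called, 1554, was 2435 with DESeq2, 1022 with the 4 libraries and 737 to 1480 when a library was left out (737 without X16, 953 without X13 and 981 without X71). Keeping organelle genes, an alternative added after seeing the data, and the block for the authors' table changed no call of the 5 genes. No scaling moved the median of all genes outside -0.03 to 0.03. No paired analysis was possible because the labels give no replicate numbers. Precision was limited by 3 libraries per group and not by counting.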
